A study of Mus musculus with 3 samples.

Results

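The 10 genes described here are the mouse lysyl oxidases and their partners in collagen maturation, taken by symbol from an RNA-seq table of 22757 named genes. They are the oxidases Lox, Loxl1, Loxl2, Loxl3 and Loxl4, the lysyl hydroxylases Plod1, Plod2 and Plod3, the procollagen C-proteinase enhancer Pcolce, and Serpinh1, the collagen chaperone Hsp47. Each symbol occurred once in the table and matched 1 gene of the GENCODE M21 annotation of GRCm38. The libraries came from 3 cell lines of the HI-Panc mouse pancreatic tumour progression model, 1 library each for the localized, the invasive and the metastatic stage. All 3 lines derive from tumours of transgenic mice, share the genotype p16-/- and were kept in DMEM medium with 10% serum, without experimental immortalization; the labels do not give the number of animals. A treatment note shared by the samples mentions cobalt chloride, an agent that mimics hypoxia, given at 100 ng/ml over 24 h, and leaves unclear whether the sequenced cells had received it. By tissue label, the localized line is from body wall, the invasive line from pancreatic tissue, and the metastatic one from liver. Groups were taken from the stage labels, against which the tissue labels of the localized and invasive lines look exchanged. If the localized and invasive lines had been exchanged, every direction between them would turn round and their comparisons with the metastatic line would change places.

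Fibrillar collagen is made strong in steps. Inside the cell, lysyl hydroxylases modify lysines of the procollagen chains and Hsp47 holds the folded triple helix on its way out of the endoplasmic reticulum. Outside the cell, the C-propeptide is cut off by Bmp1-type proteases, which Pcolce speeds up. Secreted, copper-dependent lysyl oxidases then turn lysines and hydroxylysines into aldehydes that form crosslinks between collagen molecules and, in elastic fibres, between elastin molecules. In pancreatic tumours, which are known for a dense collagen-rich stroma, these genes are usually studied as products of fibroblasts and of tumour cells under hypoxia.

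Levels are FPKM (fragments normalised to transcript length and library depth) after removal of the 0.1 that the authors' table holds as its lowest value, so they can be compared between genes. Differences are on the log2(FPKM + 1) scale, which understates the fold of low genes. A gene was called higher or lower at a difference of at least 1 (2-fold), among the 11404 genes whose 3-library mean reached 1 FPKM. With 1 library per stage there is no replicate check and no p-value. Intervals cover counting error only and rest on depths estimated at 41600000, 37300000 and 39700000 fragments in the localized, invasive and metastatic libraries. All 10 genes passed the filter, and 9 of them reached 1 FPKM in every library. The exception was Lox in the metastatic library. On its invasive and metastatic levels alone Lox would not have passed the filter. Its differences from the localized library are therefore not independent of the filter.

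Some facts of the whole libraries bear on these genes. Duct epithelium markers ran opposite to most of the 10 genes. Their 9 levels summed to 1222, 6318 and 6812 FPKM in the localized, invasive and metastatic libraries. Of the 8 past the filter 5 were called higher for invasive and 6 for metastatic against localized, and 0 lower. Of all counted genes, 8.78% and 9.08% were called higher, and 6.07% and 7.29% lower. Krt19 had 181, 1970 and 2365 FPKM, Krt7 0.793, 598 and 1077 FPKM, and Cdh1 20.7, 218 and 118 FPKM, while Epcam was at 0.209, 1.31 and 2.63 FPKM and Cldn4 under 0.1 FPKM throughout. Of 8 fibroblast markers, 6, 2 and 4 reached 1 FPKM in the localized, invasive and metastatic libraries, and their summed levels were 193, 6.70 and 6.42 FPKM. The 6 endothelium markers all stayed under 1 FPKM, and 1 of 8 leukocyte markers (Cd68, at 4.82, 10.5 and 9.93 FPKM), 1 of 8 acinar markers (Cela1, at 7.24, 1.13 and 0.323 FPKM) and 1 of 6 hepatocyte markers (Ttc36, at 1.23, 0.125 and 0.157 FPKM) reached it. The defining markers Ptprc, Pecam1, Cpa1 and Alb were between 0 and 0.197 FPKM in every library. Of the 6 smooth muscle and pericyte markers 2 passed the filter, and they went opposite ways. Acta2 had 16.3, 4.76 and 0.461 FPKM, and Mylk 2.96, 3.67 and 8.84 FPKM. Myh11 stayed under 0.1 FPKM throughout. Of the mesothelium markers Msln had 106, 291 and 409 FPKM, with Wt1 listed at 0. Cdkn2a, the gene of p16, was listed at 0 in the localized library, at 15.4 FPKM in the invasive one and at 23.6 FPKM in the metastatic one, a whole-gene value that does not test the engineered allele. In bulk RNA, fewer cells of a type and less RNA per cell cannot be told apart.

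The localized library had the highest level of 9 of the 10 genes, where 41.6% of all counted genes were highest in that library. Loxl2 was the exception, being lowest there and highest in the invasive library. Among the other 9, the metastatic library was lowest for Lox, Loxl1, Plod2 and Serpinh1, and the invasive library for Loxl3, Loxl4, Plod1, Plod3 and Pcolce. The spread differed greatly between genes. Lox differed 243-fold between its highest and lowest library, Loxl1 27.7-fold and Loxl3 13.6-fold, whereas Plod3 differed 1.36-fold and Plod2 1.43-fold.

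**Figure D1:**
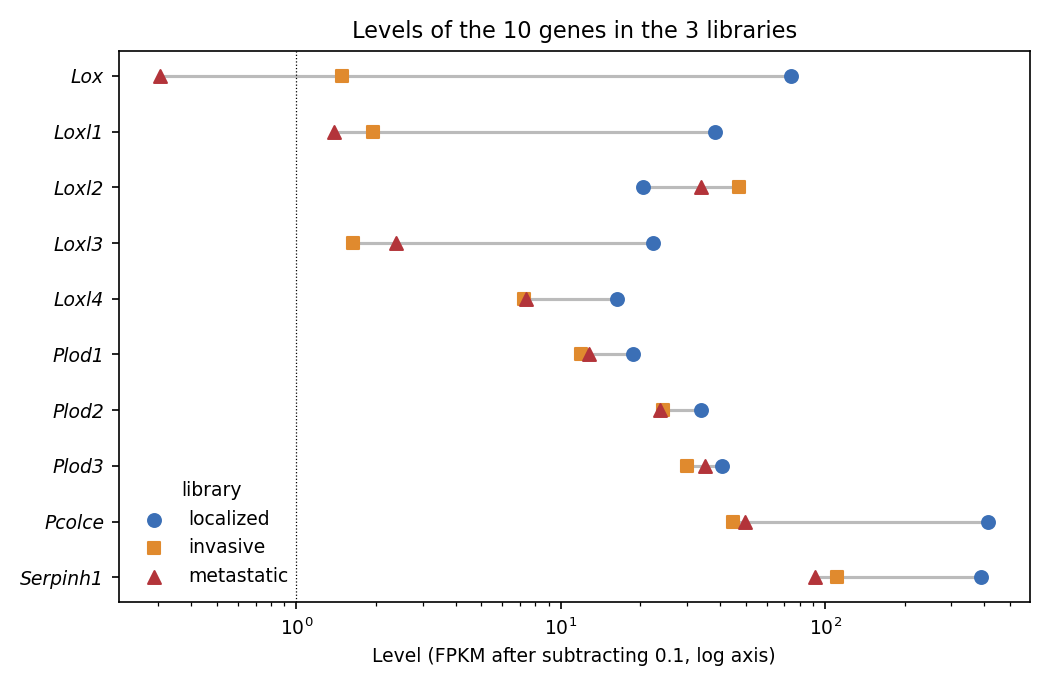
Level of each of the 10 genes (rows) in FPKM on a log axis, with 1 point per library and a grey line joining the lowest and highest library; the dotted line marks 1 FPKM. The localized library is the rightmost point in every row except that of Loxl2, and the lysyl hydroxylases have the shortest lines.

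Between the invasive and the localized library, 6 of the 10 genes were called lower (Lox, Loxl1, Loxl3, Loxl4, Pcolce and Serpinh1), against 6.07% of all counted genes. Loxl2 was called higher, against 8.78% of all genes, and the 3 hydroxylases lay within 2-fold. The median difference of the 10 genes was -1.44, where that of all counted genes was 0.00 to 2 decimals. Between the metastatic and the localized library the same 6 genes were called lower, against 7.29% of all genes, and 0 were called higher, against 9.08%. The median of the 10 genes was -1.56. These comparisons use the same localized library, so the second count is not a repeat of the first. Between the metastatic and the invasive library, which leaves the localized library out, 0 of the 10 genes were called in either direction, against 1.33% of all genes higher and 1.67% lower. The median there was 0.00 to 2 decimals, with a range of -0.93 to 0.35.

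**Figure D2:**
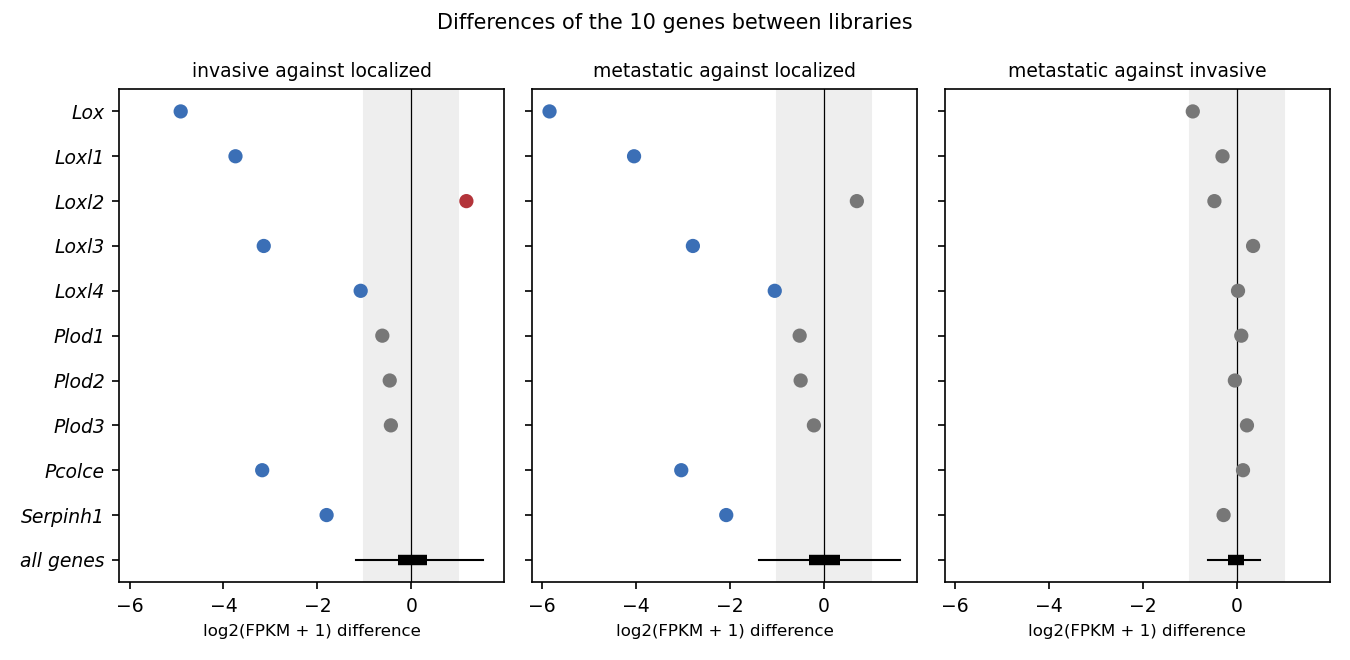
Difference of each of the 10 genes on the log2(FPKM + 1) scale for the 3 pairs of libraries, first-named library minus second; grey shading marks less than 2-fold, blue points are called lower and the red point higher. The bottom row shows the 5th to 95th percentile (line) and the quartiles (bar) of 11404 genes. In the right panel all 10 genes lie inside the shading.

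The founding member of the oxidase family, Lox, acts on fibrillar collagens and elastin and is a known target of the hypoxia-inducible factors. The gene (ENSMUSG00000024529.14) lies on GRCm38 chromosome 18 from 52516067 to 52529867 on the minus strand. Its level was 74.0 FPKM in the localized, 1.49 in the invasive and 0.305 FPKM in the metastatic library, which corresponds to about 14599, 263 and 57 fragments. Lox lay at percentile 94.8 of all genes in the localized library and near the middle in the others (percentiles 52.8 and 46.3), where 6937 and 6760 genes of the table are listed at 0. It was 49.6-fold lower in the invasive than in the localized library (95% counting interval 44.0 to 56.4), with a difference of -4.91. In the metastatic library it was 243-fold lower than in the localized library (189 to 323), with a difference of -5.84. Only 0.193% of counted genes differed more between these libraries in either direction.

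Lox was also the single member lower by at least 1.5-fold at both steps along the stages, a pattern of 1.54% of all counted genes. From plain FPKM, the metastatic library held 4.89-fold less Lox than the invasive library (3.68 to 6.67). On the log2(FPKM + 1) scale this was -0.93 and missed the 2-fold rule, because a pseudocount of 1 outweighs the metastatic level. With a pseudocount of 0.1 the difference was -1.97 and passed it, as 3.27% of all genes then did in that direction. It also passed, as the one member called lower, after rescaling each library to a sum of 1000000 (2.01% of all genes lower) and at a 1.5-fold rule (5.35%). Across the 3 libraries, the 5 genes whose pair of differences from the localized library lay nearest to that of Lox were Osr1, Sod3, Dkk2, Sgk1 and Dcn. Their Euclidean distances ran from 0.23 for Osr1 to 0.78 for Dcn on the log2 scale. Like Lox, all but Sgk1 would not have passed the filter on their invasive and metastatic levels alone. Osr1, a mesenchymal transcription factor, had 59.8, 0.728 and 0.0376 FPKM in the localized, invasive and metastatic libraries, and Dcn, the proteoglycan decorin and 1 of the fibroblast markers above, had 54.4, 0.0710 and 0.0142 FPKM. Of the other family members the nearest was Loxl1, in place 37 by this distance. Pcolce and Loxl3 followed in places 98 and 121, while Loxl2 was in place 10292.

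Loxl1, an oxidase that in mice maintains elastic fibres together with fibulin-5, had 38.4 FPKM in the localized, 1.94 in the invasive and 1.39 FPKM in the metastatic library. The gene (ENSMUSG00000032334.10) lies on chromosome 9 from 58287738 to 58313186, minus strand. Loxl1 was 19.8-fold lower in the invasive than in the localized library (17.4 to 22.6) and 27.7-fold lower in the metastatic than in the localized library (23.9 to 32.2). The invasive and metastatic levels rest on about 239 and 182 fragments, and their ratio, metastatic over invasive, was 0.716 (0.586 to 0.870).

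Loxl3, which carries scavenger-receptor domains ahead of its catalytic domain and is needed for palate and spine development in mice, had 22.3, 1.64 and 2.37 FPKM in the localized, invasive and metastatic libraries. Its position is chromosome 6 from 83034173 to 83052562, plus strand (ENSMUSG00000000693.10). It was 13.6-fold lower in the invasive than in the localized library (12.0 to 15.5) and 9.42-fold lower in the metastatic than in the localized library (8.48 to 10.5). Loxl3 shares 535 exonic bases with Htra2 on the other strand, a protease gene at 36.8, 24.0 and 31.7 FPKM in the same order. No source used here says whether the libraries kept strand, and the part of Htra2 reads in the low Loxl3 levels was not tested.

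Loxl4, the oxidase most like Loxl2 and Loxl3 in domain layout, differed least among those called lower. The gene (ENSMUSG00000025185.14) lies on chromosome 19 from 42593982 to 42612813, minus strand. Its level was 16.4 FPKM in the localized, 7.23 in the invasive and 7.41 FPKM in the metastatic library. The differences of -1.08 for invasive and -1.05 for metastatic against localized lie just past the 2-fold rule, and 5.52% and 6.82% of counted genes had a more negative difference. Metastatic and invasive levels could not be told apart within counting error (ratio 1.02, 0.940 to 1.12).

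Loxl2 went the other way. This oxidase crosslinks collagen IV of basement membranes, also acts as an intracellular partner of Snail factors, and is a known hypoxia-inducible gene. It lies on chromosome 14 from 69609068 to 69695834, plus strand (ENSMUSG00000034205.16). Loxl2 had 20.4 FPKM in the localized, 47.3 in the invasive and 33.8 FPKM in the metastatic library, or about 4518, 9372 and 7142 fragments. It was 2.32-fold higher in the invasive than in the localized library (2.24 to 2.40; difference 1.17). In the metastatic library it was 1.66-fold higher than in the localized library (1.60 to 1.72; difference 0.70), inside the 2-fold rule but past a 1.5-fold rule, which called 15.9% of all genes higher. The metastatic level was 0.715 of the invasive level (0.693 to 0.737). Loxl2 shares 301 exonic bases with the antisense gene Gm27177, which has no listed level. The part of Gm27177 reads in the Loxl2 levels was not tested.

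Because FPKM is per length, the oxidases can be added up and set against each other. Their summed level was 172 FPKM in the localized, 59.6 in the invasive and 45.3 FPKM in the metastatic library. Lox made up 43.1%, 2.5% and 0.673% of that sum in the localized, invasive and metastatic libraries. Loxl2 made up 11.9%, 79.4% and 74.7% in the same order. The localized library held all 5 oxidases at 9.55% or more of the sum, with the order Lox, Loxl1, Loxl3, Loxl2, Loxl4. In the invasive and metastatic libraries Loxl2 came first, Loxl4 second with 12.1% and 16.4%, and Lox last. Loxl1 was above Loxl3 in the invasive library and below it in the metastatic library. The longest identical stretch between the transcripts of any pair of oxidases was 32 bases, between Lox and Loxl1, and the read length is not known.

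**Figure D3:**
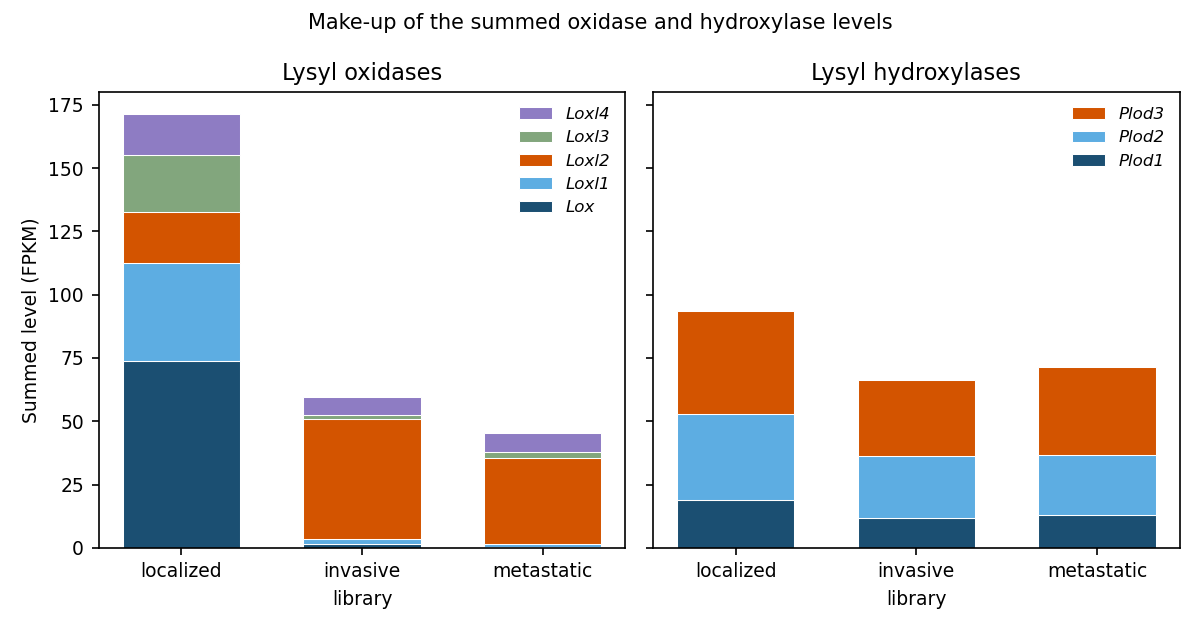
Summed levels in FPKM of the 5 lysyl oxidases (left) and the 3 lysyl hydroxylases (right) in each library, stacked by gene on 1 shared axis that starts at 0. In the oxidase panel the orange Loxl2 part makes up most of the invasive and metastatic bars, while the 3 hydroxylase bars keep similar proportions.

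The lysyl hydroxylases differed little. Plod1 hydroxylates lysines in the collagen helix, Plod2 those in the telopeptides where crosslinks form, and Plod3 also adds sugars to hydroxylysine. Plod3 (chromosome 5, 136987019 to 136996648, plus strand) had 40.8, 29.9 and 35.0 FPKM in the localized, invasive and metastatic libraries. Plod2 (chromosome 9, 92542223 to 92608428, plus strand), a known hypoxia-inducible gene like Lox and Loxl2, had 33.9, 24.4 and 23.8 FPKM. For Plod1 (chromosome 4, 147909753 to 147936767, minus strand) the levels were 18.8, 11.9 and 12.8 FPKM. The order Plod3, Plod2, Plod1 was the same in each library, and their shares of the summed hydroxylase level stayed between 17.9% and 20.1% for Plod1, 33.2% and 36.9% for Plod2, and 43.6% and 48.9% for Plod3.

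Of the 6 differences from the localized library, the furthest was that of Plod1 in the invasive library, 1.58-fold lower (1.48 to 1.69; difference -0.62). The nearest to 0 was that of Plod3 in the metastatic library, 1.16-fold lower (1.12 to 1.21; difference -0.21). All 6 were below 0, and in each case at least 11.2% of counted genes had a more negative difference. Plod2 shares 346 exonic bases with Gm38391 on the other strand, which has no listed level. Plod3 shares 529 exonic bases with Znhit1 on the other strand, which had 32.8, 27.9 and 40.7 FPKM in the localized, invasive and metastatic libraries. The summed hydroxylase level was 93.5, 66.2 and 71.6 FPKM in that order, so the oxidase sum was 1.83, 0.900 and 0.632 of the hydroxylase sum.

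Pcolce and Serpinh1 were the most abundant of the 10 genes in every library except for Loxl2, which exceeded Pcolce in the invasive library. Pcolce binds the C-propeptide region and raises the activity of Bmp1. It lies on chromosome 5 from 137605103 to 137613784, minus strand (ENSMUSG00000029718.14). Its level was 414 FPKM in the localized library (percentile 99.2 of all genes), 45.0 in the invasive and 49.5 FPKM in the metastatic library. Pcolce was 9.22-fold lower in the invasive than in the localized library (8.86 to 9.59; difference -3.18), and 8.36-fold lower in the metastatic than in the localized library (8.06 to 8.68; difference -3.04). The related enhancer Pcolce2 went the other way, with 7.33, 15.4 and 21.3 FPKM in the localized, invasive and metastatic libraries and a called difference of 1.42 for metastatic against localized. The ratio of Pcolce to Pcolce2 was 56.5 in the localized library and 2.92 and 2.33 in the invasive and metastatic libraries.

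Serpinh1, which is tied to collagen synthesis in nearly all cell types and is also a heat shock gene, lies on chromosome 7 from 99345376 to 99353239, minus strand (ENSMUSG00000070436.12). It had 389 FPKM in the localized, 111 in the invasive and 91.2 FPKM in the metastatic library. In the invasive library it was 3.51-fold lower than in the localized library (3.44 to 3.60; difference -1.80). The metastatic library was 4.27-fold lower than the localized one (4.16 to 4.37; difference -2.08). Even so Serpinh1 stayed above 95.7% of the table in each library. Of 14 other heat shock and endoplasmic reticulum folding genes, 1 was called higher and 0 lower in both comparisons with the localized library, with medians of 0.20 (invasive) and 0.16 (metastatic). The shares of all counted genes were 8.78% and 9.08% higher, and 6.07% and 7.29% lower. The one called was the small heat shock protein Hspb1, at 29.0, 140.1 and 90.8 FPKM in the localized, invasive and metastatic libraries.

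Promoter sequence is given for 3 genes called lower in both comparisons and, for contrast, for Plod3, which was not. The windows are the 250 bases before the RefSeq transcription start in GRCm38.p6, read 5′ to 3′ on the gene's strand. They lie at chr5:137611405-137611654 (Pcolce, minus), chr7:99353240-99353489 (Serpinh1, minus), chr19:42612807-42613056 (Loxl4, minus) and chr5:136986769-136987018 (Plod3, plus). The Pcolce window lies inside the GENCODE span of the gene given above, so not every annotated Pcolce transcript starts downstream of it. Capitals mark matches on either strand to the hypoxia response core ACGTG, the Snail-type E-box CAGGTG, the CCAAT box CCAAT and the GC box GGGCGG.
Pcolce: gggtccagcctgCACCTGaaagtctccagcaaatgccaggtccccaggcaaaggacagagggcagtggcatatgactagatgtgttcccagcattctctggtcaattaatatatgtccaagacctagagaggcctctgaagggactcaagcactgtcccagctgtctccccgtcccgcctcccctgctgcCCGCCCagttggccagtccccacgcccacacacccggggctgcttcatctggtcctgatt
Serpinh1: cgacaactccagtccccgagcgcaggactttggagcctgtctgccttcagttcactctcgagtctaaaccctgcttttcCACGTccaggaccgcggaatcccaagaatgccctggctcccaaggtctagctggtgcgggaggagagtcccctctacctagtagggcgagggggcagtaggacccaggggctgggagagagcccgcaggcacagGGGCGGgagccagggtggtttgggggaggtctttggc
Loxl4: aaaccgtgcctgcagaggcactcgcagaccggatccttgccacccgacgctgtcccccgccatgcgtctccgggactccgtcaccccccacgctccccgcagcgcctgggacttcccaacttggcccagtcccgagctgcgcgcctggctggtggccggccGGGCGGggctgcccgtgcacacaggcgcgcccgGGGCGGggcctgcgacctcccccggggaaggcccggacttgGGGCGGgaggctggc
Plod3: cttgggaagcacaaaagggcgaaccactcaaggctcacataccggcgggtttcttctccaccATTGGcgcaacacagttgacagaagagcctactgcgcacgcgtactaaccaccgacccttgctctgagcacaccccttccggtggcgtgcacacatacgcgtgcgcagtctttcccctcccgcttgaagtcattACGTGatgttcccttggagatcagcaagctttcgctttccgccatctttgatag

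The 4 windows share no single motif. GC boxes, held by 32.7% of 32851 RefSeq promoter windows of the same length, numbered 3 in Loxl4, 1 in Pcolce, 1 in Serpinh1 and 0 in Plod3. The hypoxia core, held by 16.6% of windows, occurred once in Serpinh1 and once in Plod3. The E-box, held by 17.2%, occurred once in Pcolce, 238 bases before the start. A CCAAT box, held by 33.8%, occurred once in Plod3. None of the 4 held the TATA box TATAAA, which 12.4% of windows held. The windows differed most in base composition, with 27 CpG pairs and 76.0% G or C in Loxl4 against 5 CpG pairs and 58.8% in Pcolce, where the median of all windows was 6 pairs and 52.4%. Promoter windows were found for 5 of the 10 genes. The other was Plod1, also within 2-fold, whose window held 2 GC boxes and 1 TATA box. GC boxes were thus not limited to the genes called lower. Lox, Loxl1, Loxl2, Loxl3 and Plod2 had no window.

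The genes these enzymes serve were set beside them, as lists of which some members passed the filter only through the localized library and so had to differ. The shares of all counted genes belong beside each list count against localized. They were 8.78% higher and 6.07% lower for invasive, and 9.08% higher and 7.29% lower for metastatic. Counts of 1 or 2 in a short list are not read as differing from these shares. Of 11 fibrillar collagen chains, 6 passed the filter. In the invasive library 4 were called lower and 1 higher (median -2.08), in the metastatic library 4 lower and 0 higher (median -3.76), both against localized. Over all 11 chains, low ones included, the medians were -0.14 and -0.86. Col1a1, the main chain of type I collagen, had 162, 46.3 and 3.45 FPKM in the localized, invasive and metastatic libraries, Col3a1 had 117, 8.67 and 6.57 FPKM, and Col5a1 18.0, 16.8 and 9.46 FPKM. The summed level of the 11 chains was 494, 110 and 21.4 FPKM in that order. Serpinh1 amounted to 0.788, 1.00 and 4.26 times the collagen sum in the localized, invasive and metastatic libraries. For the 3 hydroxylases together these ratios were 0.189, 0.60 and 3.35, and for the 5 oxidases together 0.347, 0.540 and 2.12. Against the invasive library, the collagen sum of the metastatic library was 5.16-fold lower and its oxidase sum 1.32-fold lower.

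Elastic fibre genes and matrix proteins that hold oxidases in place were counted next. Of 15 listed, 8 passed the filter, of which 6 were called lower for invasive and 7 for metastatic against localized, and 0 higher. The medians of the 8 were -2.17 and -2.58, and those of all 15 were -0.36 and -0.35. Emilin1, an elastic fibre glycoprotein, had 23.8, 0.583 and 0.140 FPKM in the localized, invasive and metastatic libraries. Fbln5, the Loxl1 partner, had 9.89, 1.18 and 0.503 FPKM. Like Lox, Emilin1 and Fbln5 would not have passed the filter on their invasive and metastatic levels alone. The calls of Emilin1 and Fbln5 are therefore not independent of the filter. Fibronectin, Fn1, had 928, 285 and 171 FPKM. Efemp2, the fibulin that brings Lox to elastin in mice, had 169, 83.9 and 43.2 FPKM. Among the 8, Ltbp3 was called in neither comparison, with 82.1, 120 and 106 FPKM, and Efemp2 just missed the rule for invasive (difference -0.998). Elastin itself, Eln, stayed under 0.1 FPKM in every library.

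Other steps of collagen maturation were mostly within 2-fold. Of 9 prolyl hydroxylation genes past the filter (10 listed), 1 was called lower for invasive and 2 for metastatic against localized, and 0 higher, with medians of -0.19 and -0.48. P4ha3, a catalytic subunit of prolyl 4-hydroxylase, had 19.0, 0.889 and 0.200 FPKM in the localized, invasive and metastatic libraries. On its invasive and metastatic levels alone P4ha3 would not have passed the filter, so its calls are not independent of the filter. The other catalytic subunits did not follow P4ha3, P4ha1 having 61.8, 54.8 and 56.1 FPKM and P4ha2 46.9, 63.0 and 75.3 FPKM. Leprel2 (P3h3), which works in a complex with Plod1, had 13.8, 7.04 and 4.04 FPKM.

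Of 6 partners of the lysyl hydroxylases past the filter (7 listed), Fkbp10 was called lower in both comparisons with the localized library. This isomerase, which binds Plod2 and assists its activity, had 59.3, 5.03 and 6.13 FPKM in the localized, invasive and metastatic libraries. Fkbp7, another isomerase of the endoplasmic reticulum, had 19.5, 15.9 and 6.53 FPKM and was called lower in the metastatic library against both others. Glt25d1 (Colgalt1), which adds galactose to the hydroxylysine that Plod enzymes make, was called higher in both comparisons with the localized library, at 61.2, 141 and 130.5 FPKM.

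Procollagen export genes had 1 of 8 called higher for invasive and 2 for metastatic against localized, and 0 lower. Of all counted genes, 8.78% and 9.08% were called higher in these comparisons. Creb3l1, a membrane-bound transcription factor known to drive type I collagen genes in bone, had 13.4, 75.8 and 42.1 FPKM in the localized, invasive and metastatic libraries. Mia2, a cargo receptor relative, had 4.77, 10.5 and 10.9 FPKM. For propeptide removal, 2 of 7 listed genes passed the filter. Bmp1, the protease that Pcolce assists and that also activates the Lox precursor, had 20.6, 16.9 and 12.3 FPKM and was within 2-fold between every pair; the other was Pcolce2. Copper supply genes had 1 of 7 called, higher in both comparisons with the localized library. That gene was the copper pump Atp7b (0.251, 5.88 and 8.70 FPKM in the localized, invasive and metastatic libraries), while Atp7a, which loads secreted copper enzymes, had 3.83, 3.67 and 3.69 FPKM.

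Of the amine oxidases outside the family, 1 of 5 passed the filter. This was the mitochondrial monoamine oxidase Maoa, with 11.5, 9.82 and 5.04 FPKM in the localized, invasive and metastatic libraries, called lower in the metastatic against the localized library.

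**Figure D4:**
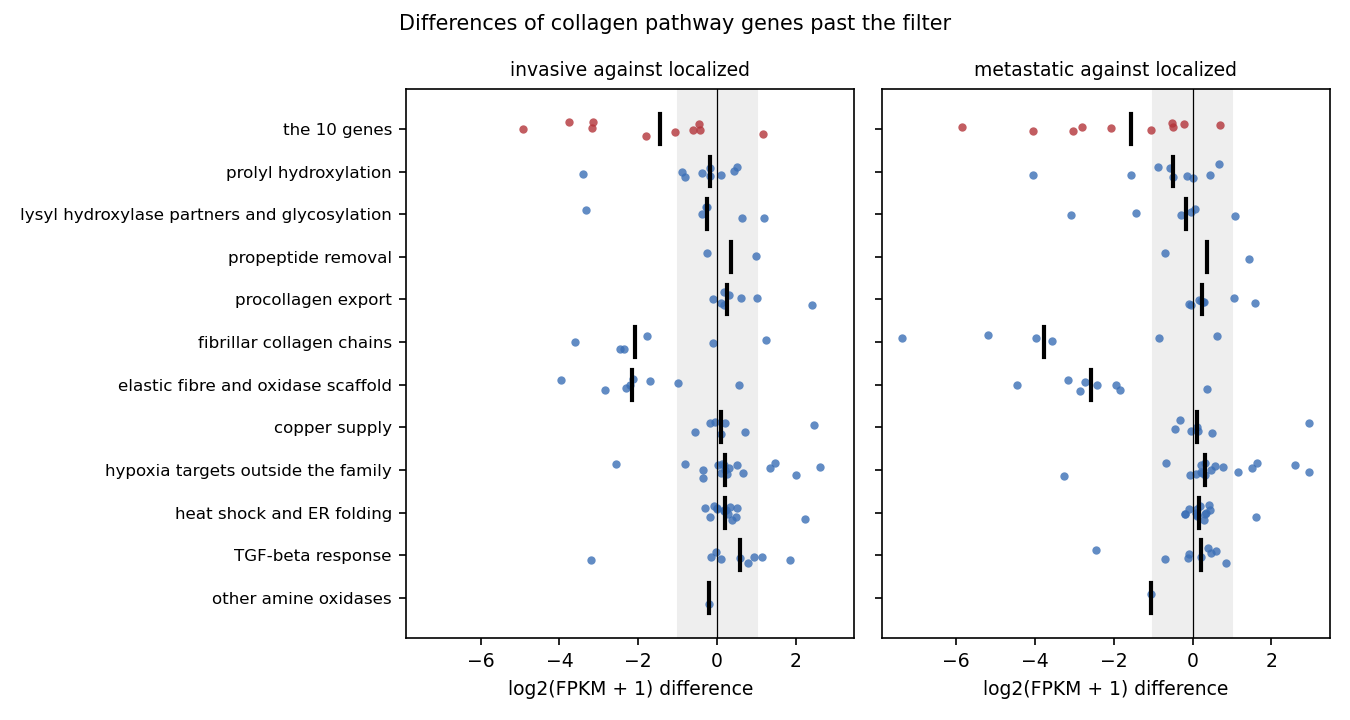
Differences from the localized library on the log2(FPKM + 1) scale for the invasive (left) and metastatic (right) library, with the 10 genes in red, genes of 11 lists past the filter in blue, and black ticks at each median. Vertical scatter within a row only separates points, and grey shading marks less than 2-fold. The rows with medians below -1 in both panels are the 10 genes, the fibrillar collagens and the elastic fibre list.

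Since Lox, Loxl2 and Plod2 are known hypoxia-inducible genes and the treatment text mentions cobalt chloride, 17 other hypoxia targets were read beside them. Against localized, 4 were called higher for invasive and 5 for metastatic, and 1 lower in each, with medians of 0.20 and 0.32. The shares of all counted genes were 8.78% and 9.08% higher, and 6.07% and 7.29% lower. Egln3, an oxygen-sensing prolyl hydroxylase, had 24.2, 152 and 195 FPKM in the localized, invasive and metastatic libraries, and the peptide Adm had 2.58, 8.03 and 20.6 FPKM. Car9, a carbonic anhydrase used as a hypoxia marker, was the one called lower, at 48.1, 7.23 and 4.15 FPKM. Also called higher in both comparisons were Ero1l (64.6, 263 and 203 FPKM) and Ddit4 (39.2, 110 and 89.1 FPKM), and in the metastatic one Ankrd37. Lox was called lower, as was Car9 alone among the 17 targets. Loxl2 was called higher for invasive, and Plod2 stayed within 2-fold. A link of these genes to the targets was not tested. Of 9 genes that respond to TGF-beta, which also raises Lox in many cells, 2 were called higher and 1 lower in the invasive library, and 0 higher and 1 lower in the metastatic library, both against localized. The one called lower in each was the matrix protein gene Tgfbi, with 77.3, 7.49 and 13.4 FPKM in the localized, invasive and metastatic libraries.

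Fibroblast markers were set beside the genes called lower. Of the 8, 4 passed the filter and were called lower against localized in both the invasive and the metastatic library, Dcn passing only through its localized level, so that it had to differ. Pdgfra had 42.7, 1.09 and 1.97 FPKM in the localized, invasive and metastatic libraries, and Prrx1, a mesenchymal transcription factor, had 83.7, 4.34 and 1.16 FPKM. Pdgfrb had 8.37, 0.838 and 1.84 FPKM in the same order, and would not have passed the filter on its invasive and metastatic levels alone. Among the 4 below the filter, Thy1 had 2.16 FPKM in the localized library, where Lum was also above 1 FPKM, and both were under 0.1 FPKM in the others. Fap stayed under 0.1 FPKM in all libraries, and Pdpn went the other way, listed at 0 in the localized library, at 0.299 FPKM for invasive and at 1.43 FPKM for metastatic. The part of fibroblast-type or epithelial cells in the levels of the 10 genes was not tested.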

How the data were processed

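Per the labels' protocols, 1 ug of Trizol-extracted total RNA per line went into an Illumina TruSeq RNA library. The authors deposited FPKM per gene, 1 column per library. Cufflinks 2.2.1, STAR 2.5.2a, FastQC 0.11.2 and the build GRCm38 are listed, without roles, per the submitters' processing notes. Annotation, strandedness and read length: not given in the sources used here. The lowest deposited FPKM was 0.1 in each column and was subtracted. Of 22784 entries, 27 with a spreadsheet date number for a symbol were left out, as were short and ribosomal RNAs by name. 1 engineered allele of the genotype label is not reported here.

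Calls used a pseudocount of 1, a mean of at least 1 FPKM and a difference of at least 1 (log2). The 20 lists (172 symbols, all in the table, 6 under an older name) and the members were chosen with earlier results of these data known. All members were named, with up to 4 genes per list by largest difference; a few others were named after their values were seen, to account for counts. Fragments were estimated from the FPKM step of 1 fragment in genes with 1 GENCODE M21 transcript of at least 1000 bases, and multiplied out with each member's principal transcript length. Ratios carry exact (Clopper-Pearson) 95% intervals of the fragment split, and fragments were not counted by molecular identifiers. The functions were tested on simulated data. Python 3.11.15, pandas 2.3.3, numpy 2.4.6 and scipy 1.17.1 were used. Alternatives were a pseudocount of 0.1, no filter, no subtraction, rescaling and a 1.5-fold rule.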

Additional observations from a re-analysis of the deposited data

How the results depend on the processing

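No member difference changed sign under any of the alternatives run (30 differences; pseudocount 0.1, no subtraction of 0.1, rescaling to a sum of 1000000, median ratio scaling). At the 2-fold rule, Lox in the metastatic against the invasive library was the single difference whose call changed. Members called lower in that comparison numbered 1 (Lox) in place of 0 with a pseudocount of 0.1, with rescaling (difference -1.22) and with a 1.5-fold rule, where 3.27%, 2.01% and 5.35% of all genes were called lower. The pseudocount and rescaling values follow from a smaller weight of the pseudocount. With the 1.5-fold rule, members called higher in the metastatic against the localized library numbered 1 (Loxl2) in place of 0, against 15.9% of all genes, and those called lower in the invasive against the localized library 7 in place of 6 (with Plod1), against 11.9%. The median of the members ran from -1.49 to -1.44 for invasive and from -1.61 to -1.56 for metastatic against localized. For metastatic against invasive it ran from 0.00 to 0.02 and took either sign.

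The 1.5-fold rule called 1727 genes higher and 1361 lower for invasive against localized (1001 and 692 at 2-fold), 1816 and 1607 for metastatic against localized (1035 and 831), and 400 and 610 for metastatic against invasive (152 and 191). Genes lower in the last comparison numbered 373 with a pseudocount of 0.1. Of the medians and counts of the pathway lists, 24 moved with the 1.5-fold rule, 15 without the filter, 13 with a pseudocount of 0.1 and 7 with rescaling, and 0 medians past 2-fold changed sign. Among smaller ones, without the filter, propeptide removal took -0.15 in place of 0.35 (invasive) and -0.60 in place of 0.36 (metastatic) against localized, and other amine oxidases 0.01 in place of -0.84 for metastatic against invasive; the remaining 3 sign changes were of medians at -0.02 and 0.01. No paired analysis was possible because each stage has 1 library, and none could be left out. Depth limits Lox, Loxl1 and Loxl3 in the invasive and metastatic libraries, with about 57 to 386 fragments each.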
